A study of Mus musculus with 16 samples.

Results

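Voltage-gated sodium and calcium channel genes were taken as all genes whose array name starts with Scn followed by a number and a or b, or with Cacna, Cacnb or Cacng. The rule found 35 of the 29273 genes on the array, 11 for sodium channel subunits and 24 for calcium channel subunits, carried by 66 probes. Each gene was read from its brightest probe, and 34 of the 35 were bright enough to be tested. The remaining one, Scn7a, was well above background on 1 array each of whole brain and cerebellum and on no array of olfactory bulb, cortex or striatum. The sorted cells came from GAD67-eGFP mice on a C57Bl/6 background at postnatal day 1, whose GABA-making cells, the inhibitory ones, carry a green fluorescent protein. Their source was whole brain (4 arrays, 4 mice per the labels) or 1 of 4 regions, namely olfactory bulb, cortex, striatum or cerebellum (3 arrays per region, from the brains of 6 mice per the labels), and each of the 16 arrays set them, labelled with Cy5, against one common pool of amplified cDNA from total brain of 4 mice of the same age, labelled with Cy3. Log2 ratios are sorted cells over reference, so that a positive one is a brighter sorted-cell channel. The direction rests on the dye names, because the label of the Cy3 channel calls that dye red. No array had the dyes swapped, so a dye effect on a probe cannot be told apart from its ratio against the reference.

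Voltage-gated sodium channels open on depolarisation and carry the rising phase of the action potential; each has a large pore-forming alpha subunit and smaller beta subunits that set its gating and place in the membrane. Voltage-gated calcium channels turn depolarisation into calcium entry, which drives transmitter release at terminals and gene regulation in the cell body. Their alpha1 subunit forms the pore, alpha2delta and beta subunits bring it to the surface, and several members of the gamma family act instead as partners of AMPA-type glutamate receptors, under the name TARP.

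Pearson's r across genes was 0.936 to 0.992 between arrays of one group. It was lower between arrays of different regions, at 0.776 to 0.927, and lowest between whole-brain and regional arrays, at 0.618 to 0.748. Genes are not independent replicates, so these values describe the arrays. The whole-brain arrays stand apart and were all scanned on one day, while the 12 regional arrays were scanned on another, so that scan day and the contrast of whole brain with the regions cannot be told apart. Gad1, the gene behind the sort, was below the reference on all 4 whole-brain arrays (mean log2 ratio -1.51) and above it on all 12 regional arrays (0.79 to 0.91 by region). Gad2 and Slc32a1, which make and package GABA, were above the reference in all 5 groups, with 2 of the 3 cortex arrays measured for Slc32a1. Genes of glutamatergic neurons had a median log2 ratio of -2.28 in whole brain and -1.44 to -2.65 in the regions, over 6 genes. In bulk samples such as these, fewer cells of a type and less RNA per cell cannot be told apart.

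Most channel genes differed in signal between sorted cells, always in Cy5, and total brain, always in Cy3. Lower ratios outnumbered higher ones. In whole brain 28 of 34 were called by limma at an adjusted p under 0.05, against 79.6% of all genes tested, with 11 higher (44.9% of all genes) and 17 lower (34.7%). In olfactory bulb 26 were called, against 67.9% of all genes, with 6 higher (36.7%) and 20 lower (31.2%). In cortex 25 were called, against 69.4%, with 7 higher (37.9%) and 18 lower (31.5%). These shares of members called lay near those of all genes. In striatum 26 were called, against 67.5%, with 6 higher (36.1%) and 20 lower (31.4%). In cerebellum 26 were called, against 75.9%, with 9 higher (42.7%) and 17 lower (33.2%). Calls of at least 2-fold were 11 of 34 in whole brain, where 22.2% of all genes had one, and 11 in olfactory bulb, where 14.4% had one. They were 7 in cortex (13.8% of all genes), 5 in striatum (9.4%) and 8 in cerebellum (16.5%). The median log2 ratio of the members lay between -0.27, in striatum, and -0.12, in cerebellum, while the median over all genes lay between 0.03 and 0.09. The split depended on the normalization: with median centring in place of loess, 17 members were higher and 15 lower in olfactory bulb, and 18 were higher and 13 lower in whole brain. Of the calls over all genes, 55.6% were then higher in olfactory bulb and 57.4% in whole brain, against 54.1% and 56.5% with loess.

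**Figure D1:**
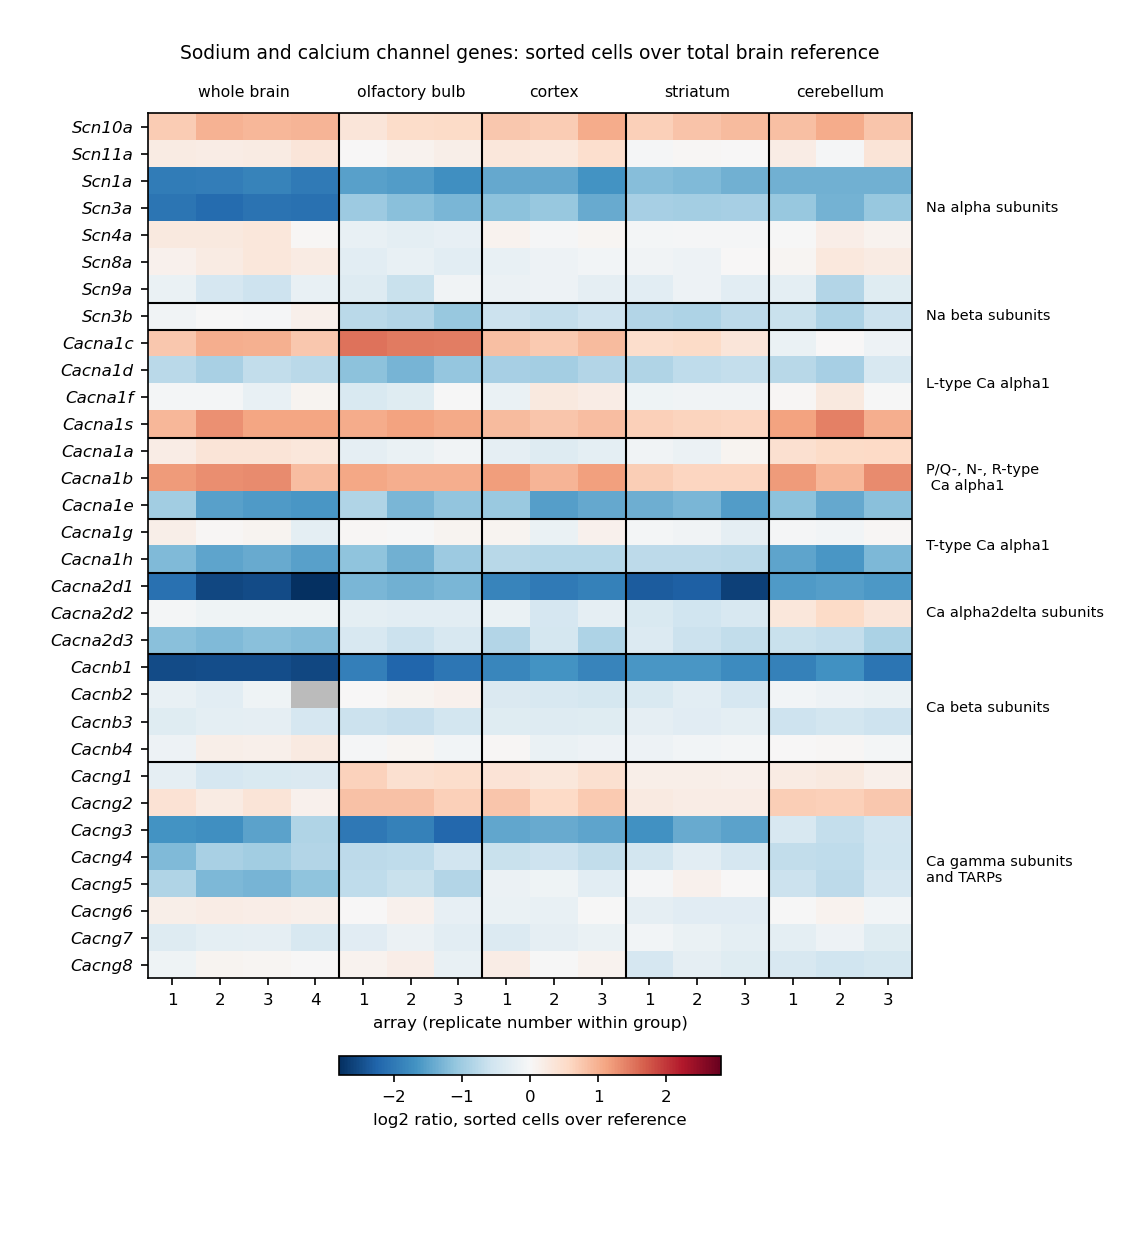
Log2 ratio of sorted cells over the total brain reference for 32 members (rows, grouped by role) on each of the 16 arrays (columns, by group), red above and blue below the reference. Cacnb1, Cacna2d1, Scn1a and Scn3a are blue on every array and Cacna1b, Cacna1s and Scn10a red on every array; the grey square is the 1 spot marked by the scanner software.

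Among the 9 sodium channel alpha subunits, the genes for the central neuronal channels Scn1a and Scn3a were the lowest. Scn3a encodes an alpha subunit that is prominent in embryonic and newborn brain. Its log2 ratio was -2.04, -2.15, -2.07 and -2.10 on the 4 whole-brain arrays. It was -1.01, -1.17 and -1.27 in olfactory bulb, -1.15, -1.06 and -1.40 in cortex, -0.92, -0.94 and -0.93 in striatum, and -1.06, -1.33 and -1.06 in cerebellum. Every array was thus below the reference, and the whole-brain arrays lay below all regional arrays without overlap. In whole brain the gene was 4.26-fold lower than in the reference (-2.09 ± 0.05, SD, n = 4, limma adjusted p = 7.28e-17). These values come from the brightest of its 3 probes, and the other 2 gave 0.07 and 0.30 in whole brain. For the probe at 0.07 the sorted-cell signal was well above background on 4 of the 16 arrays. For the probe at 0.30 it was so on all 16, and that probe gave -0.04 to 0.20 in the regions. The direction thus depends on the probe. Scn1a, the alpha subunit whose loss from inhibitory neurons causes epilepsy in mice, was read from 1 probe. It stood at -1.94 ± 0.04 in whole brain (SD, n = 4), and its regional means ran from -1.60 in olfactory bulb to -1.26 in striatum, all called.

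Scn10a, known from sensory neurons of the dorsal root ganglion, was the highest alpha subunit. Its log2 ratio was 0.71, 0.98, 0.92 and 0.94 in whole brain. The regional arrays gave 0.35, 0.52 and 0.54 in olfactory bulb, 0.74, 0.71 and 1.04 in cortex, 0.68, 0.80 and 0.88 in striatum, and 0.85, 1.05 and 0.78 in cerebellum. All 16 arrays were above the reference, and the 3 olfactory bulb arrays were the lowest of them. In whole brain the ratio was 1.85-fold (limma adjusted p = 1.49e-10). A dimmer second probe for the gene, with a sorted-cell signal well above background on 4 arrays, gave -0.04 in whole brain and -0.27 to -0.30 in the regions, so that the direction differs between probes. Scn11a, another sensory neuron channel, was at 0.25 in whole brain and from 0.00 in striatum to 0.36 in cortex.

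Scn8a, the main alpha subunit of mature axon initial segments and nodes, crossed the reference level between groups by its brightest probe only. A second probe, nearly as bright, was below the reference in all 5 groups, from -0.39 in striatum to -0.14 in cerebellum. By the brightest probe the gene was higher in whole brain (0.22 ± 0.08, SD, n = 4) and cerebellum (0.19 ± 0.12, n = 3), where the second probe gave -0.35 and -0.14. It was lower in olfactory bulb (-0.27 ± 0.04) and cortex (-0.14 ± 0.06), where median centring turned the values to 0.22 and 0.14. The cortical call was kept under 9 of 24 alternatives, lost under 14 and reversed under 1. Its striatal value of -0.08 was not called. Cerebellum exceeded the other 3 regions by 0.35 ± 0.07 (SE, limma adjusted p = 0.000605), of which 0.16 lay in the sorted-cell channel and 0.19 in the reference channel. Scn4a, the alpha subunit of skeletal muscle, was called higher in whole brain (0.23) and lower in olfactory bulb (-0.24, or 0.24 with median centring). Scn9a, known from peripheral sensory and sympathetic neurons, had a sorted-cell signal that was not well above background on any array of olfactory bulb or cortex. In olfactory bulb the reference signal was 1.27-fold higher on average, by the bound for dim genes described below (limma adjusted p = 0.0041 for the ratio). The log2 ratios there were -0.36, -0.62 and -0.09, and the call was lost under 1 of 24 alternatives (highest limma adjusted p 0.101). In cortex the reference signal was 1.14-fold higher, a plain ratio and no lower bound, and the gene was not called (limma adjusted p = 0.106).

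Scn3b, a sodium channel beta subunit, was at 0.00 ± 0.09 in whole brain and at -0.88 to -0.61 in the regions by its brightest probe, a difference of 0.75 ± 0.07, but its other 2 probes were at -3.12 and -2.74 in whole brain, and the mean of all 3 probes turned the difference to -0.83. In the regions all 3 probes were below the reference.

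Of the L-type calcium channel alpha1 subunits, Cacna1c showed the widest regional range of all members. It encodes the L-type pore of heart and brain, which couples calcium entry to transcription in neurons. Its log2 ratio was 1.51, 1.45 and 1.44 in olfactory bulb, against 0.84, 0.73 and 0.89 in cortex, 0.49, 0.54 and 0.35 in striatum, and -0.19, 0.01 and -0.14 in cerebellum. The 4 regions did not overlap on any array and followed the order olfactory bulb, cortex, striatum, cerebellum. Whole-brain arrays gave 0.75, 1.03, 0.99 and 0.74, overlapping with cortex. The olfactory bulb mean was 2.77-fold above the reference, and the region exceeded the other 3 by 1.08 ± 0.08 (SE), or 2.11-fold (limma adjusted p = 1.15e-08). Cerebellum, the one region where the gene was not called against the reference, lay below the others by 1.02 on the log2 scale, or 2.03-fold (-1.02 ± 0.08, limma adjusted p = 1.04e-08). These differences were in the sorted-cell channel (1.16 and -1.06) and hardly in the reference channel (-0.08 and 0.04). A second, dimmer probe kept the order of the regions, at 1.28, 0.77 and 0.55 for olfactory bulb, cortex and striatum and at 0.00 for cerebellum, but gave 0.27 in whole brain. Set against cortex and striatum alone, a choice made after seeing the data, olfactory bulb was higher in Cacna1c by 0.83 (adjusted p = 2.85e-06).

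The promoter window of Cacna1c is shown because the gene carries the widest regional difference. It spans 250 bases before to 50 bases after the most upstream of the 3 RefSeq starts that had a window. The window lies at chr6:119196360-119196659 on the minus strand of GRCm38.p6, while the gene extends further upstream, to 119197384. The capitals mark the 3 E-boxes (CANNTG) of the window.
Cacna1c: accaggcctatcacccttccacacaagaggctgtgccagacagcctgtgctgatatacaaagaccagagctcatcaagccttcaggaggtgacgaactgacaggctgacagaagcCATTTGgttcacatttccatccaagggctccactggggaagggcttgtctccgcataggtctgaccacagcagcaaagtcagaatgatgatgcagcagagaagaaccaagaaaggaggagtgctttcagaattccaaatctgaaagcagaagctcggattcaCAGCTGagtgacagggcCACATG
The array does not tell which start of the gene was used.

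**Figure D2:**
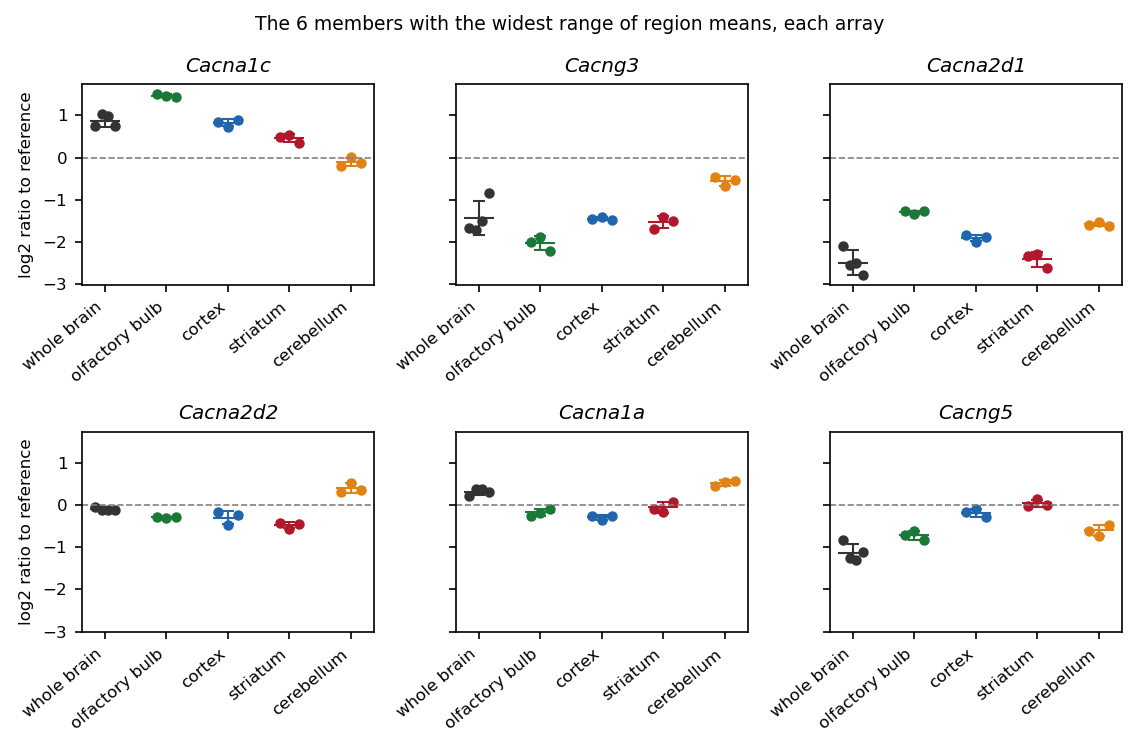
Log2 ratio to the reference on every array (points) for the 6 members with the widest range of region means, with group mean and SD (bars), by group. Cacna1c descends from olfactory bulb to cerebellum, Cacng3, Cacna2d2 and Cacna1a are highest in cerebellum among the regions, Cacna2d1 is lowest in striatum among the regions, and Cacng5 is highest in striatum.

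Cacna1s, the L-type alpha1 subunit of skeletal muscle, was above the reference on every array. Its log2 ratio was 0.93, 1.28, 1.11 and 1.10 in whole brain. The regional values were 1.04, 1.12 and 1.06 in olfactory bulb, 0.88, 0.78 and 0.85 in cortex, 0.67, 0.62 and 0.59 in striatum, and 1.12, 1.40 and 1.02 in cerebellum. The striatal arrays were the lowest of the 16 and overlapped with no other group. In whole brain the ratio was 2.15-fold (limma adjusted p = 1.59e-12). Its second probe was dimmer and gave 0.40 in whole brain and -0.14 in olfactory bulb. The lower striatal ratio (-0.40 ± 0.08 against the other regions) lay in the reference channel (-0.37, against -0.03 in the sorted-cell channel), and the higher cerebellar ratio (0.34 ± 0.08) was 0.84 in the sorted-cell channel and -0.51 in the reference channel. Of 7 muscle genes, 3 were higher and 2 lower in whole brain (44.9% and 34.7% of all genes), with a median log2 ratio of 0.20 and a range from -1.86 to 1.33. Myod1, a muscle transcription factor, was the highest of them and Actc1, cardiac actin, the lowest. The median of the list ran from -0.18 in cortex to 0.24 in cerebellum over the regions, and its part in the values of Cacna1s, Scn4a and Cacng1 was not tested.

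Cacna1d, the L-type alpha1 subunit of neuronal pacemaking, was lower in all 5 groups, from -0.71 in cerebellum to -1.17 in olfactory bulb. It was read from the brightest of 4 probes; another was higher than the reference in all 5 groups, from 0.15 in striatum to 0.73 in olfactory bulb, so that its direction depends on the probe. Cacna1f, the retinal L-type subunit, was dim. In olfactory bulb its sorted-cell signal was not well above background on any of the 3 arrays. The reference was 1.2-fold higher on average there, a plain ratio and no lower bound, with log2 ratios of -0.43, -0.35 and -0.01. The call was lost under 3 of 24 alternatives (highest limma adjusted p 0.155). Of 5 photoreceptor genes, 4 were higher and none lower in whole brain, where 44.9% of all genes were called higher and 34.7% lower, while Cacna1f itself was at -0.05 there (adjusted p = 0.537).

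The P/Q-, N- and R-type alpha1 subunits, which feed transmitter release, went different ways. Cacna1b, the N-type pore, gave 1.19, 1.30, 1.32 and 0.86 in whole brain. It gave 1.08, 1.02 and 1.02 in olfactory bulb, 1.17, 0.95 and 1.15 in cortex, 0.68, 0.61 and 0.60 in striatum, and 1.20, 0.93 and 1.32 in cerebellum. All arrays were above the reference, with those of striatum below all the rest. The whole-brain ratio was 2.24-fold (limma adjusted p = 7.63e-12), the highest of the members there. The second probe of the gene, well above background on nearly all arrays but dimmer, was below the reference in all 5 groups, from -1.37 in whole brain to -0.75 in cortex, and the mean of both probes was -0.10 in whole brain.

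Cacna1a, the P/Q-type pore that dominates at Purkinje cell synapses, was 0.44, 0.54 and 0.56 in cerebellum, against -0.26, -0.19 and -0.09 in olfactory bulb, -0.26, -0.37 and -0.27 in cortex, and -0.10, -0.17 and 0.08 in striatum. Cerebellum lay above every array of the other regions. It exceeded their mean by 0.70 ± 0.07 (SE, limma adjusted p = 4.75e-07), with 0.64 of that in the sorted-cell channel. The second probe gave 0.34 in cerebellum and -0.97 to -0.31 in the other regions. In olfactory bulb the value against the reference was called at -0.18 and became 0.22 with median centring. Cacna1e, the R-type pore, was lower in all 5 groups, from -1.43 in whole brain to -1.07 in olfactory bulb, and no region differed from the others. A second, dim probe of it gave 0.03 to 0.31.

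Of the T-type subunits, which open at low voltage and shape burst firing, Cacna1h was lower throughout and Cacna1g was called in no group. Cacna1h was at -1.45 ± 0.19 in cerebellum, against -1.16 ± 0.17 in olfactory bulb, -0.79 ± 0.01 in cortex and -0.74 ± 0.01 in striatum (SD, n = 3 each). Cerebellum was lower than the mean of the others by 0.55 on the log2 scale (-0.55 ± 0.09, limma adjusted p = 6.31e-05), though its highest array (-1.25) lay above the lowest olfactory bulb array (-1.35). A second probe, nearly as bright, put cerebellum highest of the regions instead, at -0.46, against -0.62 in olfactory bulb, -0.50 in cortex and -0.59 in striatum, so that the regional direction depends on the probe. Among the 4 probes of Cacna1h the whole-brain values ran from -1.41 to 0.32. For Cacna1g the brightest probe stayed between -0.13 and 0.03, whereas its other probe ran from -2.17 in whole brain to -1.28 in olfactory bulb.

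The alpha2delta subunits raise the number of calcium channels at the surface, and Cacna2d1 is the target of gabapentin. Its log2 ratio was -2.34, -2.29 and -2.61 in striatum, against -1.27, -1.34 and -1.27 in olfactory bulb, -1.84, -1.99 and -1.89 in cortex, and -1.59, -1.53 and -1.61 in cerebellum. The regions did not overlap, with striatum lowest and olfactory bulb highest. Whole-brain arrays gave -2.10, -2.55, -2.50 and -2.79, or a signal 5.6-fold lower than the reference (limma adjusted p = 1.74e-16). Striatum lay below the other regions by 0.82 on the log2 scale (-0.82 ± 0.10, limma adjusted p = 1.87e-05) and olfactory bulb above the others by 0.67 ± 0.10 (adjusted p = 9.42e-05). The sorted-cell channel held -0.88 of the striatal difference and 0.96 of the bulbar one, and the reference channel 0.06 and -0.29. A second probe was also below the reference in all 5 groups, from -0.94 in striatum to -0.33 in cortex. By that probe olfactory bulb, at -0.34, was not the highest region.

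The promoter window of Cacna2d1 is shown beside the printed one of Cacna1c, since olfactory bulb was above the other regions for both genes by their brightest probes. The contrast between them holds for the printed Cacna1c window only. The Cacna1c window starting at 119108446 held 6 GC boxes and 2 E-boxes at 81.3% G and C, against 80% for Cacna2d1. That starting at 118757925 held no GC box and 1 E-box. The Cacna2d1 window covers chr5:15934441-15934740 on the plus strand of GRCm38.p6. Its capitals mark 7 GC boxes (GGGCGG on either strand, overlapping matches counted), with no E-box.
Cacna2d1: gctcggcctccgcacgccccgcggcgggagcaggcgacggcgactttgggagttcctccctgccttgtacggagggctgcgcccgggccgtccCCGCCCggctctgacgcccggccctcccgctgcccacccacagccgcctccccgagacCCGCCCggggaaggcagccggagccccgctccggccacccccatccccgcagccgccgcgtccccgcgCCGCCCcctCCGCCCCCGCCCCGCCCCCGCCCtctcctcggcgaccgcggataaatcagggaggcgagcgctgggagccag

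Cacna2d2, the alpha2delta subunit of Purkinje cells and the gene mutated in ducky mice, was 0.32, 0.53 and 0.34 in cerebellum, against -0.28, -0.30 and -0.29 in olfactory bulb, -0.18, -0.47 and -0.25 in cortex, and -0.43, -0.56 and -0.45 in striatum. Cerebellum exceeded the others by 0.75 ± 0.07 (SE, limma adjusted p = 2.22e-07), with 0.50 in the sorted-cell channel and 0.25 in the reference channel. The other 3 of its 4 probes were also highest in cerebellum among the regions, but below the reference there (-0.77 to -0.03), and the mean of the 4 was -0.20. Cacna2d3 was lower in all groups, from -1.20 in whole brain to -0.50 in olfactory bulb.

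Of the beta subunits, which bind the pore inside the cell, Cacnb1 was the lowest member in whole brain. The gene is best known from the skeletal muscle channel. It gave -2.50, -2.48, -2.47 and -2.56 in whole brain. The regions gave -1.91, -2.21 and -2.01 in olfactory bulb, -1.83, -1.67 and -1.85 in cortex, -1.63, -1.64 and -1.77 in striatum, and -1.89, -1.70 and -2.06 in cerebellum. Whole brain lay below every regional array, 5.66-fold under the reference (limma adjusted p = 4.08e-18), and the regions overlapped. By its brightest probe Cacnb2 was higher in olfactory bulb than in the other regions by 0.40 ± 0.07 (limma adjusted p = 0.000256) and lower in cortex and striatum. A second probe put cortex highest of the regions (-0.14), with -0.16 in olfactory bulb, -0.27 in cerebellum and -0.37 in striatum. In whole brain 1 Cacnb2 spot was marked and left out. Cacnb3 was lower in all groups (-0.59 to -0.28; with median centring the whole-brain value turned to 0.03), and Cacnb4 was called in none.

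The gamma family held the members with the second widest regional range and several of opposite direction. Cacng3, a TARP of forebrain neurons, gave -0.46, -0.67 and -0.53 in cerebellum, against -2.00, -1.88 and -2.20 in olfactory bulb, -1.46, -1.41 and -1.48 in cortex, and -1.69, -1.41 and -1.50 in striatum. Cerebellum was above all other regional arrays and olfactory bulb below them, while cortex and striatum overlapped. Whole-brain arrays gave -1.67, -1.71, -1.50 and -0.84, so that 1 of them stood apart. Cerebellum exceeded the other regions by 1.12 ± 0.13 (SE), or 2.17-fold (limma adjusted p = 2.75e-06), with 1.03 of it in the sorted-cell channel. Olfactory bulb lay below the others by 0.85 on the log2 scale (-0.85 ± 0.13, adjusted p = 9.68e-05). The gene has 1 probe. Its level was lower than the reference in every group, 4.08-fold in olfactory bulb and 1.47-fold in cerebellum.

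RefSeq promoter windows like those of Cacna1c and Cacna2d1 were found for 26 of the 35 members, 36 windows in all. GC boxes stood in 44.4% of them, against 35.6% of 32817 windows of all genes. E-boxes stood in 69.4% of them, against 72.3%. The letters TATAAA, of the TATA box, were found in 2.78% of the members' windows, against 13.6% of all. TAATTA, the core read by homeodomain proteins such as the Dlx factors, was found in none of the members' windows, against 5.3% of all. The left part of the RE1 element, TCAGCACC, through which neuronal genes are silenced in other cells, was found in none, against 1.65%. Its right part, GGACAG, was in 19.4%, against 22.2%. The cAMP response element TGACGTCA was found in none, against 1.79%. Both strands were read, matches of different motifs could overlap, and several windows belong to one gene.

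Cacng2, or stargazin, the TARP of cerebellar granule cells, was higher in all 5 groups by its brightest probe. Its mean was 0.28 in whole brain and, over the regions, between 0.22 in striatum and 0.77 in olfactory bulb, while the mean of all its probes was -0.26 in whole brain and -0.15 in striatum. By the brightest probe striatum was below the other regions (-0.50 ± 0.07, limma adjusted p = 8.64e-05). Of the 4 probes of Cacng2, 2 were above and 2 below the reference in whole brain (-1.04 to 0.65). A dimmer probe put cortex lowest of the regions instead (-0.34), with -0.12 in olfactory bulb, -0.19 in striatum and 0.55 in cerebellum. The remaining probes had striatum lowest, like the brightest. The highest region was olfactory bulb or cerebellum, depending on the probe. Cacng1, the gamma subunit of skeletal muscle, was lower in whole brain (-0.38 ± 0.10, SD, n = 4; 0.16 with median centring) and higher in all 4 regions (0.15 to 0.53). Cacng5 gave -0.03, 0.13 and 0.00 in striatum, against -0.71, -0.62 and -0.83 in olfactory bulb, -0.16, -0.11 and -0.30 in cortex, and -0.61, -0.74 and -0.47 in cerebellum. Striatum was above all other regional arrays, by 0.54 ± 0.09 over their mean (adjusted p = 0.000299). Cacng4, whose gene lies between Cacng1 and Cacng5 on chromosome 11, was lower in all 5 groups (-0.98 to -0.43). Cacng8, a TARP of hippocampal and cortical neurons, was lower in cerebellum (-0.50) and striatum (-0.35) and was not called in the other groups. Cacng6 was called higher in whole brain (0.17) and lower in striatum (-0.29, or 0.04 with median centring). Cacng7 was lower in all groups (-0.34 to -0.18), with values of 0.13, 0.02 and 0.11 under median centring in whole brain, olfactory bulb and striatum.

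**Figure D3:**
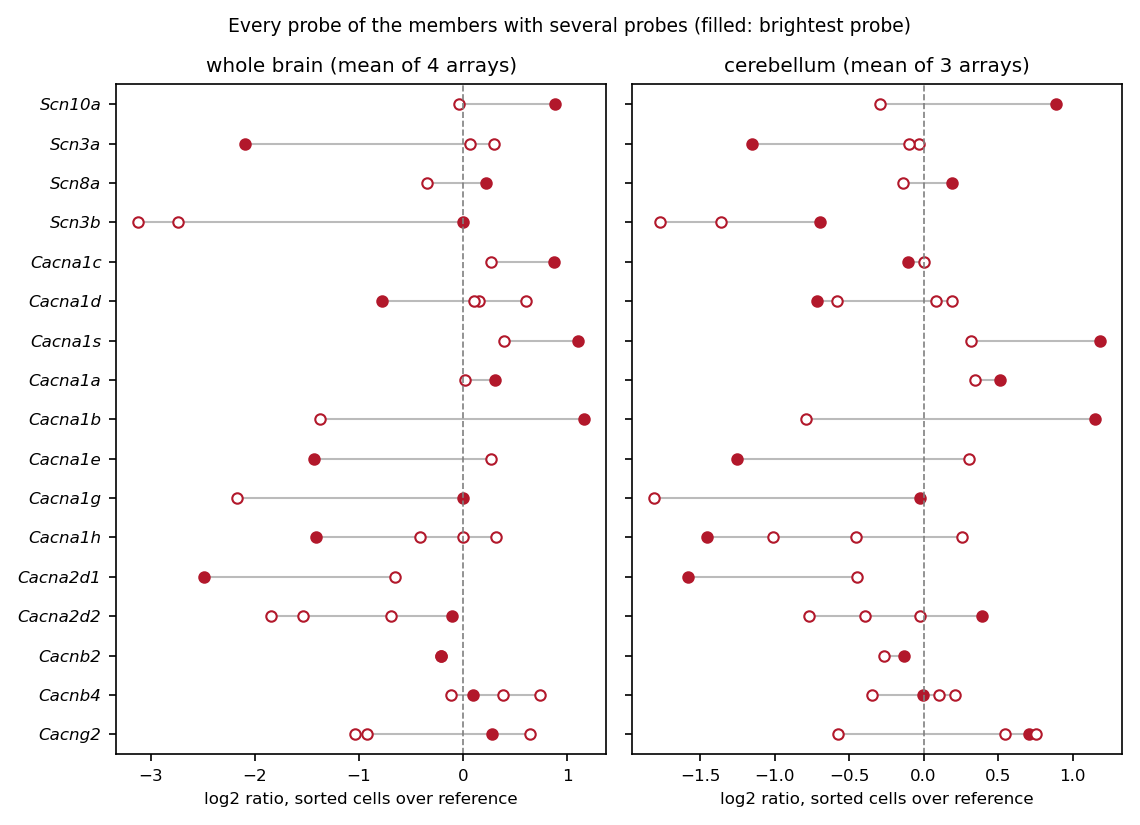
Mean log2 ratio of every probe of the members with several probes, in whole brain (left, 4 arrays) and cerebellum (right, 3 arrays); the filled point is the brightest probe, used for the gene, and a line joins the probes of a gene. Probes of Cacna1b, Cacna1d, Cacna1e and Cacna1h lie on both sides of 0 in both panels.

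Between regions, 24 of 34 members (70.6%) were called by the moderated F test, against 57.3% of all genes, and 3 of them had region means at least 2-fold apart, which held for 3.78% of all genes. Those 3 were Cacna1c, Cacng3 and Cacna2d1, described above. In olfactory bulb 17 members differed from the other 3 regions, against 29.7% of all genes, with 6 higher (13.8%) and 11 lower (15.9%). In cortex 5 differed, against 10.5%, with 3 higher (4.46%) and 2 lower (6.02%). Cortex thus had the fewest calls, among members as among all genes. In striatum 16 differed, against 30%, with 6 higher (13.5%) and 10 lower (16.5%). In cerebellum 11 differed, against 40.4%, with 7 higher (23.8%) and 4 lower (16.6%). At least 2-fold differences were 1 in olfactory bulb (0.6% of all genes) and 2 in cerebellum (1.17%), and there was none in cortex (0.154%) or striatum (0.338%). With median centring the split in olfactory bulb turned to 11 higher and 3 lower. Of the calls over all genes 60.6% were higher there, against 46.5% with loess. The contrasts of the 4 regions share arrays. The 5 cortical calls, each by the brightest probe, were Cacna1h, Cacng8 and Scn11a, higher, and Cacna1a and Cacnb2, lower. Without cortex replicate 1 or 3 there were 2 calls in cortex, and without replicate 2 there were 3. In olfactory bulb there were 11 without replicate 1 or 2, and in striatum 8, 10 and 9 without replicates 1, 2 and 3. In cortex there were also 2 calls when cerebellum was left out of the regions it was set against, a choice made after seeing the data.

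The regional differences stood beside differences in markers of other cells. Of 6 genes of the granule cell lineage, the glutamatergic neurons of cerebellum, 4 were higher in cerebellum than in the other regions and none lower, with a median difference of 0.96. Of 6 glutamatergic neuron genes, 3 were higher and 1 lower, with a median difference of 0.29, and of 6 genes of Purkinje and other cerebellar GABAergic neurons 3 were higher and 1 lower, with a median of 0.54. Of 7 genes of GABAergic neurons in general, 5 were lower in cerebellum and 1 higher, with a median of -0.67 and a lowest value of -2.91. In cerebellum, 4 of 7 genes of astrocytes and radial glia were higher and 1 lower (median 0.32), 4 of 7 of the oligodendrocyte lineage higher and none lower (median 0.31), and 3 of 5 of microglia higher and none lower (median 0.32). In striatum, astrocyte and radial glia genes were higher in 4 of 7 cases and lower in none (median 0.45), and endothelial and mural genes higher in 3 of 5 and lower in none (median 0.21, highest 1.38). Oligodendrocyte lineage genes were higher in striatum in 4 of 7 cases and lower in 1 (median 0.38), and microglia genes higher in 3 of 5 and lower in 1 (median 0.45). In cortex, astrocyte and radial glia genes were lower in 5 of 7 cases and higher in none (median -0.70), as were 5 of 7 oligodendrocyte lineage genes (median -0.36). In olfactory bulb 4 of 5 microglia genes were lower and none higher (median -0.83), and 4 of 7 oligodendrocyte lineage genes were lower and 1 higher (median -0.35). The part of these cells in the regional values of the channel genes was not tested.

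**Figure D4:**
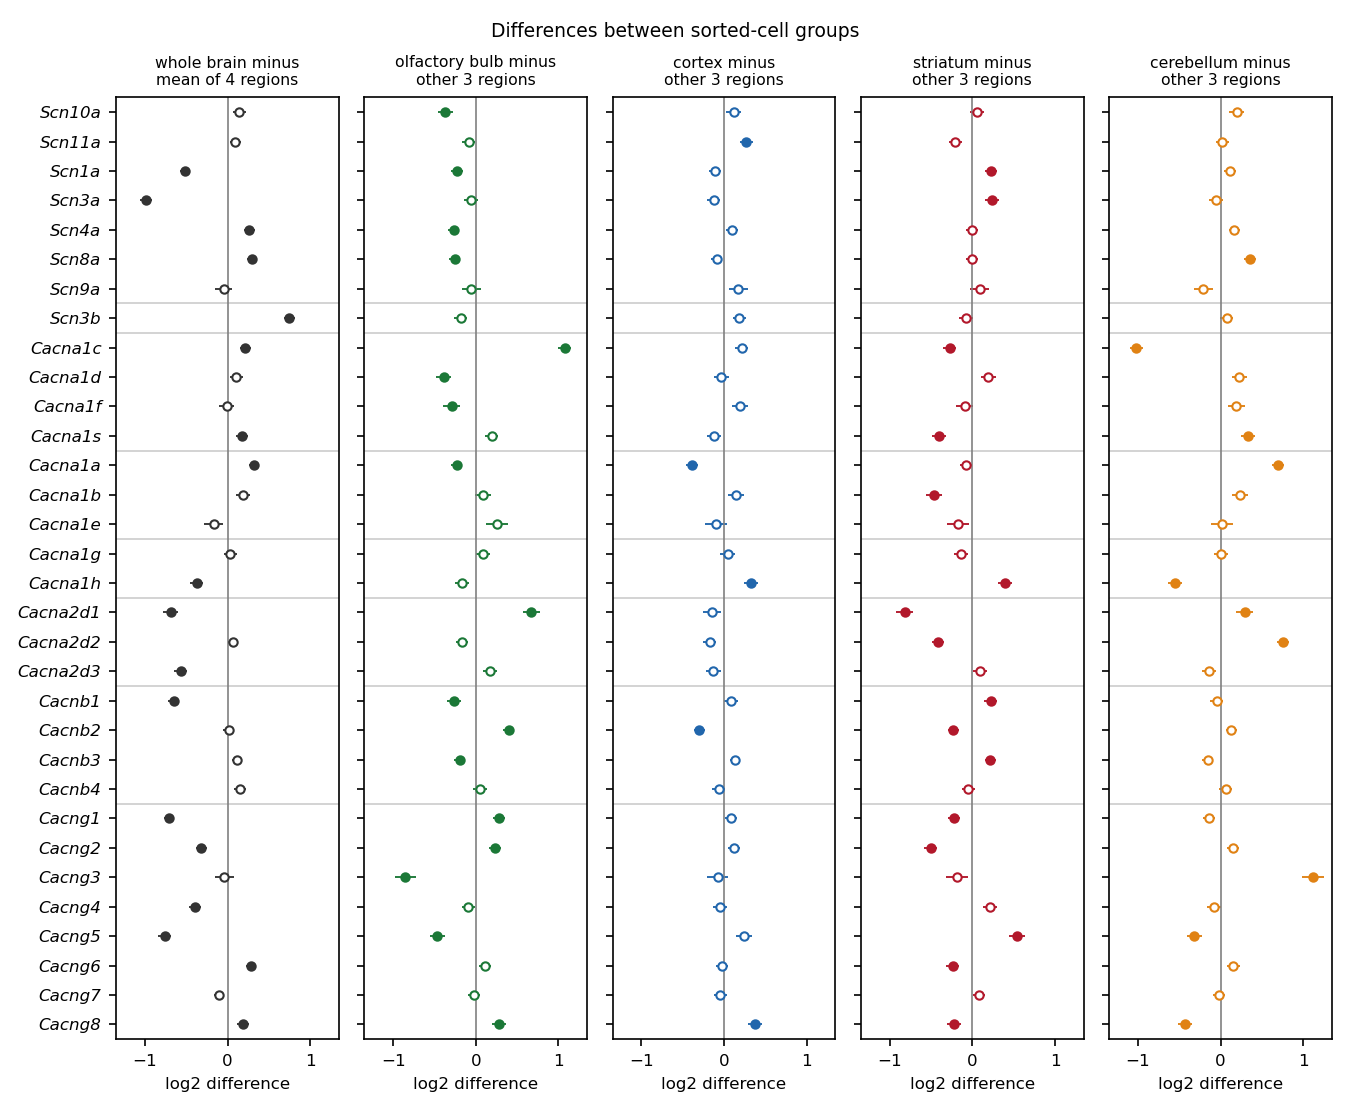
Log2 difference with SE for 32 members in 5 contrasts, from left to right whole brain minus the mean of the 4 regions and each region minus the mean of the other 3; filled points have a limma adjusted p under 0.05. Cacna1c is far right in olfactory bulb and far left in cerebellum, and Cacng3 shows the reverse.

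Whole brain differed from the mean of the 4 regions for 19 of 34 members, against 61.8% of all genes, with 9 higher (31.1%) and 10 lower (30.6%), and for none by at least 2-fold, against 9.85% of all genes. By the brightest probes the lowest differences were those of Scn3a (-0.98 ± 0.07, SE), Cacng5 (-0.76 ± 0.08), Cacng1 (-0.71 ± 0.06), Cacna2d1 (-0.69 ± 0.09) and Cacnb1 (-0.65 ± 0.07). Another Scn3a probe was higher in whole brain (0.30) than in every region (-0.04 to 0.20), so that the direction for Scn3a depends on the probe. With scaling between arrays, Cacna2d1 and Cacnb1 were no longer called, at -0.08 each. The highest was that of Scn3b, given with its other probes above, and Cacna1a (0.32 ± 0.06) and Scn8a (0.30 ± 0.06) were also higher. By its second probe Scn8a was at -0.35 in whole brain, within the range of the regions (-0.39 to -0.14). With median centring 17 members were higher and 8 lower, while 60.3% of the calls over all genes were higher, against 50.4% with loess. Marker lists moved in the same contrast. Of 6 genes of postmitotic neurons 4 were lower in whole brain and none higher (median difference -0.33), and of 7 GABAergic neuron genes 4 were lower and 2 higher (median -0.66), with Gad1 lower than in every region. Of 7 astrocyte and radial glia genes 4 were lower and 2 higher (median -0.37, lowest -1.70). Of 7 oligodendrocyte lineage genes 4 were higher and 1 lower (median 0.41), and of 5 microglia genes 4 were higher and 1 lower (median 0.39). Their part in these values was not tested, and scan day cannot be told apart from this contrast.

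Genes that work with the channels were read alongside, in 3 lists. Of 12 genes of the axon initial segment and of sodium channel partners, 1 was higher and 9 lower than the reference in whole brain, with a median of -0.41, where 44.9% of all genes were called higher and 34.7% lower. Cntn1, an adhesion protein that brings sodium channels to the surface, was lowest (-2.43), and Ank2, an ankyrin of the distal axon, was highest (0.55). Of 13 calcium channel regulators, 5 were higher and 8 lower in whole brain, so that all were called, against 79.6% of all genes. Stac2, an adaptor of L-type channels, was highest (1.31) and Calm2, a calmodulin gene, lowest (-2.13). Of 12 intracellular calcium channels, pumps and exchangers, 1 was higher and 7 lower in whole brain, beside the same shares of all genes, the higher one being Slc8a3, a sodium-calcium exchanger (0.72). Against the other regions, cerebellum had 6 of these 12 higher and none lower, with a median difference of 0.22, where 23.8% of all genes were called higher.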

How the data were processed

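Sorted cells and reference were compared on 16 two-colour Agilent arrays. For both channels the authors deposited mean spot intensity and local background intensity, as scanner output. The same deposited files give a log10 ratio made by Agilent Feature Extraction 8.1.1.1, per the file headers. The separate table of values is that log10 ratio, to within 0.005 over 43790 features, in scale and in direction. Its column medians ran from 0 to 0.0334.

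Intensities were corrected by normexp (offset 50, so that ratios of dim spots are drawn towards 0) and by loess within arrays, in limma 3.58.1 (R 4.3.3, figures in matplotlib 3.10.9). Control spots and spots marked by the scanner software had weight 0. Spots of 41174 probes were averaged and each of 29273 genes, by the array's own names, was read from its brightest probe. Genes were tested if well above background on at least 3 arrays for sorted cells or 8 for the reference, which left 27841. All arrays were fitted with 5 group means, and p-values were adjusted by Benjamini-Hochberg over all genes tested. The reference is 1 pool, so its own spread is not in these p-values. With no dye swap, the p-values against the reference do not measure a dye effect either. Splits between channels are descriptions, from loess-normalized signals brought to one distribution of average intensity. A bound for a dim gene sets its signal on each array at the higher of its own and the lowest well-measured one. Where its own was the higher throughout, as for Cacna1f in olfactory bulb and Scn9a in cortex, this leaves the plain ratio. The labels call the samples biological replicates, and regions may come from the same mice.

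Median signals were 150.9 to 717.5 for sorted cells and 92 to 254 for the reference. Of the spots, 78.1% to 96.6% were well above background for sorted cells and 72.1% to 90.7% for the reference. The number of arrays limits the precision. One striatum array used another scanner protocol. Members described in full are those called among regions with a 2-fold range and the 3 highest and 3 lowest in whole brain; of other genes, the 2 highest and 2 lowest of a list at most. Members and lists were chosen with earlier results of these data known. Alternatives covered the scanner's log ratio, median centring, scaling between arrays, the offset, the filter, the mean of probes, the groups fitted, a replicate block and leaving out arrays. Some members are counted but not reported here by name.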

Additional observations from a re-analysis of the deposited data

Results flagged for a closer look

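Cacna1a was called on opposite sides of the reference in different regions, with means from -0.30 in cortex to 0.51 in cerebellum, a range of 0.81 (moderated F test among regions, limma adjusted p = 2.5e-06). Cacna2d2 was at 0.39 in cerebellum and as low as -0.48 in striatum, a range of 0.87 (adjusted p = 1.39e-06). Scn8a was at 0.19 in cerebellum and as low as -0.27 in olfactory bulb, a range of 0.46 (adjusted p = 0.00151). Both crossings are those of the brightest probe, and the other probes of Cacna2d2 and Scn8a were below the reference in all regions. Cacng1 was below the reference in whole brain and above it in all 4 regions (0.15 to 0.53), a difference of -0.71 (adjusted p = 3.31e-09), which cannot be told apart from scan day.

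In whole brain, replicate 4 stood apart from the other 3 arrays by Dixon's criterion for Scn11a (0.34, against 0.21 to 0.23) and for Scn4a (0.042, against 0.28 to 0.31). The check covered those of the 34 members that were measured on all 4 whole-brain arrays, which left out Cacnb2. It marked 2, and chance marks about 1 in 20.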

How the results depend on the processing

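Leaving out any 1 array reversed no call among 5632 results for the 32 members plotted and ended the call of 158. Here and below, only results called in the main fit could count as reversed. Those of the F test, which have no direction, could not. The counts of members called then ran from 27 to 28 in whole brain, 23 to 26 in olfactory bulb, 23 to 26 in cortex, 22 to 26 in striatum and 23 to 27 in cerebellum, each against the reference. They ran from 11 to 18 in olfactory bulb, 2 to 6 in cortex, 8 to 18 in striatum and 9 to 13 in cerebellum against the other regions, from 16 to 22 for whole brain against the regions, and from 19 to 24 among regions. Against the other regions, olfactory bulb had 11 without its replicate 1 or 2, cortex 2 without replicate 1 or 3 and 3 without replicate 2, and striatum 8, 10 and 9 without replicates 1, 2 and 3, where fewer arrays are in the group. Cortex against the other regions had 3 members with median centring and 2 with cerebellum left out, a choice made after seeing the data. Cerebellum had 17 with scaling between arrays, 12 higher and 5 lower, where 58.4% of the calls over all genes were higher. The shares of all genes called under these alternatives are not given here, so the counts do not set members against all genes. The calls of Cacna1c and Cacng3 in olfactory bulb and cerebellum, and of Cacna2d1 in olfactory bulb and striatum, each against the other regions, kept direction and threshold under all alternatives run.

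Median centring without loess reversed values against the reference in whole brain for Cacnb2 (0.34), Cacnb3 (0.026), Cacng1 (0.16) and Cacng7 (0.13), in olfactory bulb for Cacna1a (0.22), Cacng7 (0.021), Scn4a (0.24) and Scn8a (0.22), in cortex for Cacng5 (0.11) and Scn8a (0.14), in striatum for Cacng6 (0.039) and Cacng7 (0.11), and in cerebellum for Cacnb2 (0.15). It raised the share of higher calls among all genes in olfactory bulb against the other regions to 60.6%, against 46.5% with loess. The mean of all probes reversed Cacna1b (-0.10), Cacna1d (0.023), Cacng2 (-0.26) and Scn8a (-0.063) in whole brain, Cacna1b (-0.20) and Cacng2 (-0.15) in striatum and Cacna2d2 (-0.20) in cerebellum against the reference. It also reversed Cacna1d in olfactory bulb against the other regions (0.084), and Cacna1c (-0.081), Cacna1h (0.16) and Scn3b (-0.83) in whole brain against the regions. Scaling between arrays reversed Cacnb1 in striatum against the other regions (-0.045) and Cacna1c (-0.019) and Cacna1s (-0.072) in whole brain against the regions. The scanner's log ratio put the median of all genes in whole brain at 0.25, against 0.09 with loess. The causes were not tested.

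Deviations from the group mean were correlated between same-numbered regional arrays of different groups. The correlations ran from -0.11 to 0.23 over 18 pairs, of which 5 exceeded 0.1. Their median was 0.027, against -0.017 for pairs of different numbers. Such values cannot tell whether arrays of one number share mice or a preparation. With the replicate block, 28 members were called in whole brain and 25, 23, 23 and 25 in olfactory bulb, cortex, striatum and cerebellum against the reference, 17, 5, 17 and 14 against the other regions, 20 in whole brain against the regions and 23 among regions. The shares of all genes called with the block are likewise not given here. Scan date or slide as a block was not run, since each group lies within 1 scan day and each array is its own slide; the fit of the 12 regional arrays alone, within 1 scan day, called 22 members among regions.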
